A study of Mus musculus with 30 samples.

Results

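Kidneys of *Trp53(-/-)* mice injured with aristolochic acid I (AAI) were compared with kidneys of *Trp53(+/-)* mice given the same AAI treatment. AAI is the plant nephrotoxin that causes aristolochic acid nephropathy. The comparison uses 10 of the 30 Clariom S mouse arrays of the series, 5 from *Trp53(-/-)* AAI kidneys and 5 from *Trp53(+/-)* AAI kidneys, chosen by genotype and treatment as labelled. All mice were male, on a C57BL/6 background and 9 to 11 weeks old. AAI was injected at 3.5 mg/kg body weight daily for 6 days and kidneys were taken 24 h after the last dose, whereas control mice received water. In the mutant allele a neomycin cassette replaces part of *Trp53*, so *Trp53(-/-)* mice have no functional copy and *Trp53(+/-)* mice retain 1. The mice came from crosses of heterozygotes, and the deletion is present in every cell rather than in the tubule alone. The other groups, *Trp53(+/+)* AAI, *Trp53(-/-)* water, *Trp53(+/-)* water and *Trp53(+/+)* water (5 arrays each), serve as background. The *Trp53* transcript was not analysed here, so the genotype labels were not checked on it.

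p53, the product of *Trp53*, is a transcription factor that is stabilised by DNA damage. It switches on genes that halt the cell cycle, repair DNA or trigger cell death, and it also drives *Mdm2*, whose product marks p53 for degradation. Through p21, the product of *Cdkn1a*, p53 leads to repression of genes needed for mitosis. In the kidney, AAI enters proximal tubule cells through organic anion transporters, is reduced to reactive intermediates, and forms DNA adducts there. Injured proximal tubule cells lose their transporters, produce injury proteins such as *Lcn2* and *Havcr1*, and may re-enter the cell cycle.

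RNA came from a portion of whole kidney, so tubules, glomeruli, vessels, stroma and leukocytes were measured together, and fewer cells of a type cannot be told apart from less RNA per cell. Defining markers of proximal tubule, thick ascending limb and podocytes were measured in every array, with *Umod* at 12.34 to 12.90 in *Trp53(-/-)* AAI kidneys and 12.32 to 12.63 in *Trp53(+/-)* AAI kidneys. Fat markers varied widely, with *Cidec* at 5.15 to 9.62 in *Trp53(-/-)* AAI and 5.18 to 7.46 in *Trp53(+/-)* AAI arrays. *Adipoq* ran from 4.58 to 8.50 and from 3.94 to 6.82 for *Trp53(-/-)* AAI and *Trp53(+/-)* AAI, and the part of fat in the results was not tested. Pairs of arrays within the 2 AAI groups correlated at 0.976 to 0.988 in *Trp53(-/-)* AAI and 0.982 to 0.988 in *Trp53(+/-)* AAI, and no array was a copy of another.

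A limit of the design bears on every value below. The cDNA was made in batches, and all *Trp53(-/-)* AAI samples were in batch 2 and all *Trp53(+/-)* AAI samples in batch 1, so genotype and batch cannot be told apart in this comparison. The water controls of these 2 genotypes were both in batch 2, and those of *Trp53(+/+)* mice were in batch 1. The difference between the batch 2 and batch 1 controls, which mixes batch with genotype, is therefore given for the lists and for the genes it bears on most, as the size that such a difference reached without AAI. A gene was called passed at an adjusted p under 0.05 (limma, Benjamini-Hochberg over 22139 genes, two-sided). Values are log2 signals, on which 1 unit stands for a doubling, and differences are *Trp53(-/-)* minus *Trp53(+/-)*.

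Of 22139 genes, 1224 (5.53%) were higher and 1074 (4.85%) were lower in *Trp53(-/-)* AAI than in *Trp53(+/-)* AAI kidneys. A change of at least 2-fold was reached by 148 of those that were higher (0.669%) and 260 of those that were lower (1.17%). Without a test, all 5 *Trp53(-/-)* AAI arrays lay above all 5 *Trp53(+/-)* AAI arrays for 941 genes (4.25%) and below them for 892 genes (4.03%). The median difference over all genes was 0.014. In the water kidneys, where both genotypes were in batch 2, 0 genes passed in limma. An unadjusted p under 0.05 was reached by 1011 of 22139, where no difference in any gene would give a share near 0.05. The difference between the AAI and water comparisons was itself tested in the same fit, and 250 genes (1.13%) passed with a positive and 321 (1.45%) with a negative interaction. Of the genes that passed with AAI, 563 also passed this test with the same sign, though the interaction does not remove the batch, since of its 4 groups only *Trp53(+/-)* AAI was in batch 1. Without *Trp53(+/-)* AAI replicate 3 the interaction passed for 364 genes in place of 571. Between the control batches, 175 genes (0.79%) were higher and 61 (0.276%) were lower in batch 2. Of the genes that passed with AAI, 114 passed there in the same direction and 6 in the opposite direction, and over all genes the 2 differences correlated at r = 0.37 across genes, which are not independent replicates.

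The genes with the strongest change fell into a few groups. The injury marker *Lcn2*, the matrix gene *Postn*, the smooth muscle actins *Acta2* and *Actg2* with *Tagln*, the mitotic genes *Bub1*, *Sgo1*, *Mki67* and *Ect2*, and the acute phase inhibitor *Serpina3n* were higher in *Trp53(-/-)* AAI kidneys. Lower were *Slc22a28*, *Slc22a30*, *Slc22a6*, *Slc17a3* and *Slc7a13*, all transporters of the proximal tubule, the steroid reductase *Akr1c21*, the endocytic receptor *Cubn*, the nuclease *Dnase1*, *Rnf24* and *Ccng1*, a target of p53.

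A gene list for p53 targets was read first, since the genotypes differ in p53 itself. Of 49 measured targets 17 were lower, 2 were higher and 30 did not pass, against 4.85% lower among all genes, and the median difference was -0.20. In the water kidneys the median of the same targets was -0.035, and the control batches differed by a median of 0.24 in the opposite direction. *Ccng1*, which encodes cyclin G1, measured 7.96, 7.68, 7.78, 7.68 and 8.21 in the *Trp53(-/-)* AAI arrays, against 10.12, 10.20, 10.58, 10.30 and 10.24 in the *Trp53(+/-)* AAI arrays. The groups were far apart, with a difference of -2.43 ± 0.19 (SE), which is 5.38-fold lower (adjusted p = 8.84e-10). In the water kidneys the *Ccng1* difference was -0.89 (unadjusted p = 4.23e-05) and did not pass once adjusted over all genes, and its interaction of -1.54 passed (adjusted p = 0.0010).

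Other targets with the same pattern covered several branches of the pathway. *Eda2r*, a TNF receptor family member, measured 4.18, 4.37, 4.24, 5.23 and 4.65 in the *Trp53(-/-)* AAI arrays, against 6.34, 6.62, 6.39, 6.03 and 6.14 in the *Trp53(+/-)* AAI arrays. The lowest *Trp53(+/-)* AAI array stood above the highest *Trp53(-/-)* AAI array, and the difference was -1.77 ± 0.22 (adjusted p = 1.81e-06). *Mdm2*, the ubiquitin ligase that restrains p53, measured 8.62, 8.88, 8.57, 8.30 and 8.48 in the *Trp53(-/-)* AAI arrays, against 9.51, 9.69, 9.92, 9.65 and 9.59 in the *Trp53(+/-)* AAI arrays. The difference was -1.10 ± 0.17 (adjusted p = 2.97e-05), and here batch 2 controls were higher than batch 1 controls by 0.61 (adjusted p = 0.0340), the opposite direction. *Trp53inp1*, a stress protein that promotes autophagy and cell death, measured 5.04, 5.20, 4.81, 6.55 and 6.40 in the *Trp53(-/-)* AAI arrays, against 6.65, 6.80, 6.88, 6.83 and 6.61 in the *Trp53(+/-)* AAI arrays. *Trp53(-/-)* AAI arrays 4 and 5 lay just below the *Trp53(+/-)* AAI arrays, and the other 3 were lower by more than 1 (difference -1.15 ± 0.27, adjusted p = 0.0039).

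The remaining named targets spanned metabolism, death and DNA repair. The carbonyl reductase *Dcxr* differed by -1.37, the epoxide hydrolase *Ephx1* by -1.34, the Akt inhibitor *Phlda3* by -1.19, the DNA damage response gene *Zfp365* by -0.91, the membrane protein *Ano3* by -0.87, the ribosomal protein relative *Rps27l* by -0.67 and the BH3-only death gene *Pmaip1* by -0.64 (adjusted p from 1.12e-07 to 0.0248). *Ano3* and *Pmaip1* overlapped between groups, and the others did not. *Ano3* was also low in signal, at 3.16 to 3.52 in *Trp53(-/-)* AAI and 3.48 to 5.27 in *Trp53(+/-)* AAI arrays. The mean of *Dcxr* was not higher with AAI than with water, at 8.80 and 8.95 in *Trp53(+/-)* and 7.43 and 8.86 in *Trp53(-/-)* kidneys. Of the 2 targets that were higher, *Ier3*, an early response gene, differed by 0.68 ± 0.16 (adjusted p = 0.0038). The other, *Gadd45a*, a growth arrest gene, was chosen after its values were seen and differed by 0.45 ± 0.12 (adjusted p = 0.00999). *Cdkn1a* did not pass, with 8.60, 9.21, 9.88, 10.52 and 10.29 in the *Trp53(-/-)* AAI arrays, against 9.57, 9.85, 9.91, 9.76 and 9.73 in the *Trp53(+/-)* AAI arrays (difference -0.063 ± 0.34, adjusted p = 0.95). The *Trp53(-/-)* AAI arrays spread over both sides of the narrow *Trp53(+/-)* AAI range. The sign of this difference turned with the setting, from -2.06 to 0.72 over the batch terms. In the water kidneys *Cdkn1a* averaged 6.43 in *Trp53(-/-)* and 6.70 in *Trp53(+/-)*.

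**Figure D1:**
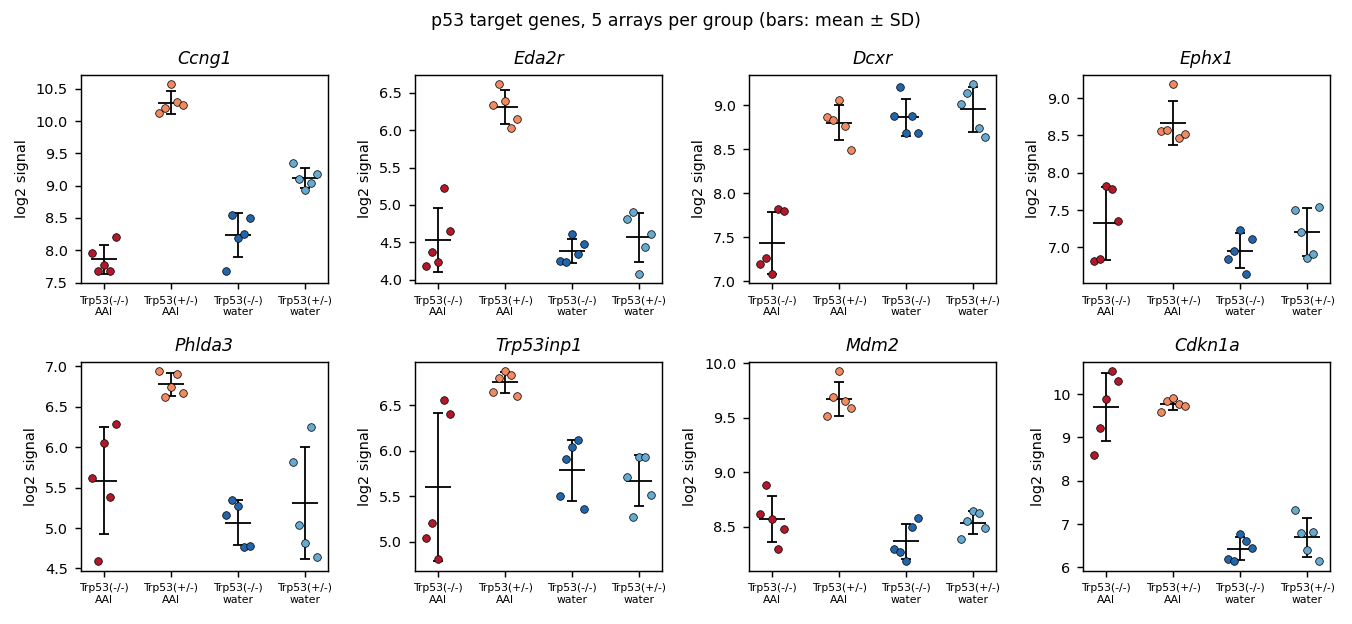
log2 signal of 7 p53 target genes that were lower, and of *Cdkn1a*, in 4 groups of 5 arrays (points, arrays; bars, mean ± SD). *Ccng1*, *Eda2r* and *Mdm2* arrays of *Trp53(-/-)* AAI sit below those of *Trp53(+/-)* AAI, whereas *Cdkn1a* overlaps.

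Promoter sequences were looked up for the lower targets to show whether the letters of a p53 half-site, the pattern p53 dimers bind, stand next to the start of the gene. Windows of 250 bases before each annotated start were taken from RefSeq (GRCm38.p6) and matched for 39 of 49 targets. A half-site stood in a window of 10 of these genes (25.6%), and in 5 of 13 of those that were lower (38.5%), against 7.45% of 15691 genes tested. A gene with several starts has several windows, and counted by window the shares were 17.5% and 25%, against 6.37%. Only matches in these windows without a mismatch to the half-site pattern were counted, so sites with a mismatch were missed. The full site, 2 such half-sites at most 13 bases apart, stood in 1 of 39 targets (2.56%) and 0.0446% of all genes. It stood in 0 of the 13 that were lower, which leaves out full sites with a mismatch. The 4 largest changes with a match are printed as 120 bases, 5′ to 3′, with the half-site in capitals. They lie at chr11:40755372-40755491 (minus strand), chr10:117710845-117710964 (minus strand), chr9:66946183-66946302 (plus strand) and chr9:36797335-36797454 (minus strand), and *Ei24*, an endoplasmic reticulum protein of autophagy, was named by this rule alone and differed by -0.60 (adjusted p = 0.000468).
*Ccng1*: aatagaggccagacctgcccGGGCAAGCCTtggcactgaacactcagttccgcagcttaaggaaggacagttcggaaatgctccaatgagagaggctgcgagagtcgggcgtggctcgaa
*Mdm2*: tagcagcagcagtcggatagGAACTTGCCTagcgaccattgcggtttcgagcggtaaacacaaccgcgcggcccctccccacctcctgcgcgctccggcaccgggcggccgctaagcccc
*Rps27l*: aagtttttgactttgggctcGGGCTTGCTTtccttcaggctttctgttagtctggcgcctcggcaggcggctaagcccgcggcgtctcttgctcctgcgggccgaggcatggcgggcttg
*Ei24*: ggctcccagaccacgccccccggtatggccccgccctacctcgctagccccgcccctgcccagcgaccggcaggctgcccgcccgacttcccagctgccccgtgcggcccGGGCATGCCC
A match describes letters only, and p53 may bind elsewhere in a gene.

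Transporters and enzymes of the proximal tubule formed the largest group of lower genes. Of 65 measured members 52 were lower, 0 were higher and 13 did not pass, with a median difference of -1.27 (batch controls -0.31), and 40 were lower by at least 2-fold. Of these 65, 38 had a negative interaction that passed. *Slc22a28*, a member of the organic anion transporter family, measured 5.94, 6.30, 4.73, 4.88 and 6.16 in the *Trp53(-/-)* AAI arrays, against 9.51, 8.62, 8.92, 8.88 and 8.64 in the *Trp53(+/-)* AAI arrays. No array of one group came within 2 log2 units of the other, and the difference was -3.31 ± 0.38 (adjusted p = 4.56e-07). *Slc22a30*, of the same family, differed by -3.19 ± 0.41 (adjusted p = 2.12e-06).

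*Slc22a6* (OAT1), which carries AAI into the cell, measured 5.58, 5.27, 5.94, 6.09 and 6.68 in the *Trp53(-/-)* AAI arrays, against 8.52, 8.58, 8.80, 8.42 and 7.81 in the *Trp53(+/-)* AAI arrays. The difference of -2.51 ± 0.22 passed (adjusted p = 5.68e-09), and its batch controls also differed, by -0.78 (adjusted p = 0.0383). The receptors for filtered protein were lower together. *Cubn* measured 6.40, 6.37, 6.07, 6.20 and 6.17 in the *Trp53(-/-)* AAI arrays, against 9.12, 8.42, 9.10, 8.07 and 8.28 in the *Trp53(+/-)* AAI arrays (difference -2.36 ± 0.22, adjusted p = 1.72e-08), and *Lrp2*, megalin, differed by -1.70 ± 0.22 (adjusted p = 3.50e-06). *Slc34a1*, the main phosphate transporter of this segment, measured 9.68, 9.66, 9.19, 10.30 and 10.62 in the *Trp53(-/-)* AAI arrays, against 11.81, 11.45, 11.18, 11.43 and 11.15 in the *Trp53(+/-)* AAI arrays. Its difference was -1.52 ± 0.24 (adjusted p = 5.36e-05). In water kidneys *Slc34a1* was 12.34 in *Trp53(-/-)* and 12.35 in *Trp53(+/-)*.

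Genes of the uptake and metabolism of AAI followed. Of 27 measured members 16 were lower and 1 was higher, with a median of -0.62 (batch controls -0.10). Besides *Slc22a6*, the uptake transporter *Slc22a8* (OAT3) differed by -2.14 ± 0.33 (adjusted p = 2.97e-05), and the glucuronyl transferase *Ugt2b38* by -1.91 ± 0.28 (adjusted p = 1.44e-05). The 1 that was higher, the cytochrome *Cyp1b1*, was chosen after its values were seen (0.45, adjusted p = 0.0490). Genes of fatty acid oxidation and peroxisomes, the main fuel pathway of the proximal tubule, had 12 of 37 lower and 0 higher (median -0.33, batch controls -0.072), led by *Eci3* (-2.10), *Acox2* (-1.64) and *Amacr* (-1.43). Of 44 subunits of the mitochondrial respiratory chain 1 was lower, *Ndufs8* with a difference of -0.39 (adjusted p = 0.0229), and the median was -0.15. Markers of the thick ascending limb and distal convoluted tubule, the next segments, had 1 of 21 lower, the calcium buffer *Pvalb* with a difference of -0.95 (adjusted p = 0.0049), and a median of 0.13. Among all genes tested 4.85% were lower, and neither the respiratory chain list nor this segment list exceeded that share.

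**Figure D2:**
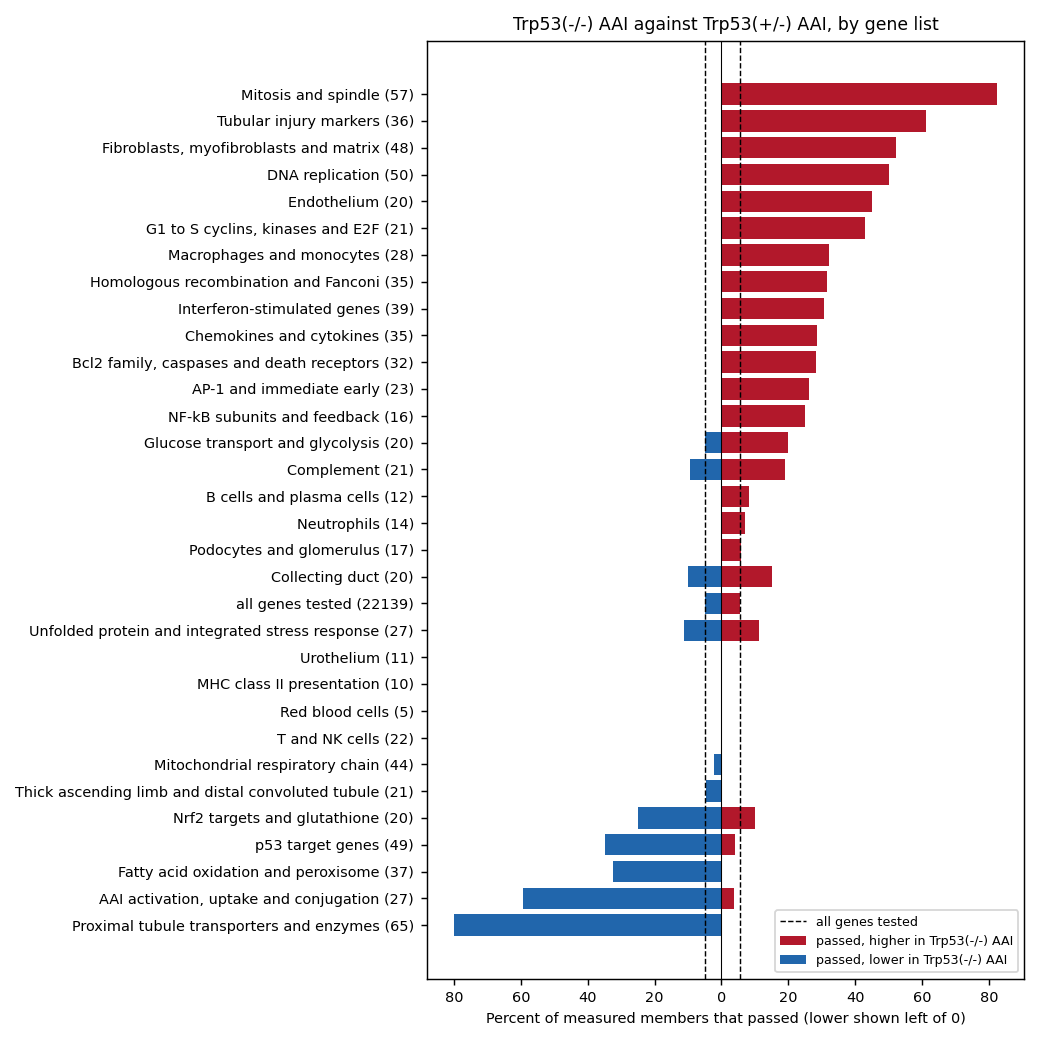
Percent of measured members of each gene list that were higher (right) or lower (left) in *Trp53(-/-)* AAI than in *Trp53(+/-)* AAI kidneys, with the number of members in brackets. Dashed lines mark the 5.53% higher and 4.85% lower of all genes tested.

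Markers of tubular injury were higher. Of 36 measured members 22 were higher, 0 were lower and 14 did not pass (median 0.79), and the batch controls showed a median of 0.51, with 9 members higher. *Lcn2* measured 12.23, 12.31, 12.65, 13.24 and 12.44 in the *Trp53(-/-)* AAI arrays, against 9.62, 9.75, 8.53, 10.22 and 9.93 in the *Trp53(+/-)* AAI arrays. Every *Trp53(-/-)* AAI array was brighter by more than 2 log2 units than the brightest *Trp53(+/-)* AAI array, and the difference was 2.97 ± 0.34 (adjusted p = 3.83e-07). Its batch 2 controls exceeded batch 1 controls by 1.82 (adjusted p = 0.0023), and with this difference subtracted in the fit it was 1.15 (adjusted p = 0.20). *Krt20*, a keratin of injured tubule cells, differed by 1.60 ± 0.38 (adjusted p = 0.0045), and *Timp1*, a protease inhibitor, by 1.71 ± 0.35 (adjusted p = 0.00089). Their batch controls were higher too, *Krt20* by 1.40 (adjusted p = 0.0297) and *Timp1* by 1.27 (adjusted p = 0.0287). With that subtracted, neither passed, at 0.20 for *Krt20* (adjusted p = 0.91) and 0.43 for *Timp1* (adjusted p = 0.73). *Havcr1* (KIM-1) measured 12.67, 12.72, 12.50, 12.19 and 11.66 in the *Trp53(-/-)* AAI arrays, against 11.43, 11.34, 11.76, 11.63 and 11.44 in the *Trp53(+/-)* AAI arrays and did not pass (0.83 ± 0.61, adjusted p = 0.50), though 4 of 5 *Trp53(-/-)* AAI arrays lay above all *Trp53(+/-)* AAI arrays. Fitted on the 10 arrays alone, *Havcr1* passed (adjusted p = 0.0078). Its batch controls differed by 1.47 (adjusted p = 0.16), and its direction turned to -0.64 with that subtracted and ran from -1.26 to 2.00 over the batch terms.

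Genes of mitosis were the list with the highest share of members that were higher. Of 57 measured members 47 were higher and 0 lower (median 0.99), of which 27 by at least 2-fold, and 19 had a positive interaction that passed. In the water kidneys the median was 0.15, and between the control batches it was 0.33. *Mki67*, present in all cycling cells, measured 9.15, 9.63, 9.44, 8.94 and 8.28 in the *Trp53(-/-)* AAI arrays, against 7.60, 7.38, 6.25, 7.39 and 7.47 in the *Trp53(+/-)* AAI arrays. *Trp53(+/-)* AAI array 3 was the lowest by a wide margin, and the difference was 1.87 ± 0.30 (adjusted p = 5.18e-05). *Bub1*, of the spindle checkpoint, differed by 2.06 ± 0.33, and *Sgo1*, which protects sister chromatid cohesion, measured 6.12, 6.58, 6.69, 6.24 and 6.35 in the *Trp53(-/-)* AAI arrays, against 4.21, 4.73, 4.04, 4.65 and 4.61 in the *Trp53(+/-)* AAI arrays (1.95 ± 0.19, adjusted p = 3.87e-08).

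Other parts of the cycle were also higher. For DNA replication 25 of 50 members were higher (median 0.45, batch controls 0.12), with *Atad2* at 1.62, *Rrm1*, a subunit of ribonucleotide reductase, at 1.16 and *Mcm4*, of the replicative helicase, at 1.15. For G1 to S cyclins, kinases and E2F factors it was 9 of 21 (median 0.44, batch controls 0.21), led by *E2f8* (1.62), the mitotic kinase *Cdk1* (1.60) and *Ccna2* (1.42), and for homologous recombination and the Fanconi pathway 11 of 35 (median 0.27, batch controls 0.032), with *Brca1* at 1.14, *Rad51ap1* at 0.88 and *Brca2* at 0.87. In these 3 lists and in the mitosis list 0 members were lower in limma, at an unadjusted p under 0.05 as well. The CHR, TTTGAA, an element through which mitotic genes are repressed, was looked up on both strands in the same windows. It stood in 19 of 50 mitosis genes with a window (38%), and in 14 of 40 of those that were higher (35%), against 16.1% of all genes. The 3 largest changes with a match were those of *Mki67* at chr7:135716380-135716499 (minus strand), *Ect2* at chr3:27153879-27153998 (minus strand), and *Top2a*, a topoisomerase, at chr11:99024269-99024388 (minus strand), shown with TTTGAA in capitals. *Top2a* was named by this rule alone (difference 1.59).
*Mki67*: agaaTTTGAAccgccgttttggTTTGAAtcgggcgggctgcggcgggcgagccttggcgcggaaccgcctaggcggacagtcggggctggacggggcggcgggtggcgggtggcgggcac
*Ect2*: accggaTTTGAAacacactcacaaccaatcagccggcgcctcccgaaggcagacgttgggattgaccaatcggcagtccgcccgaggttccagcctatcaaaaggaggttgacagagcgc
*Top2a*: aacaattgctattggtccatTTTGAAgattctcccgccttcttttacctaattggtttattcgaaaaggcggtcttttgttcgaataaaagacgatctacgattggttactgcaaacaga

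**Figure D3:**
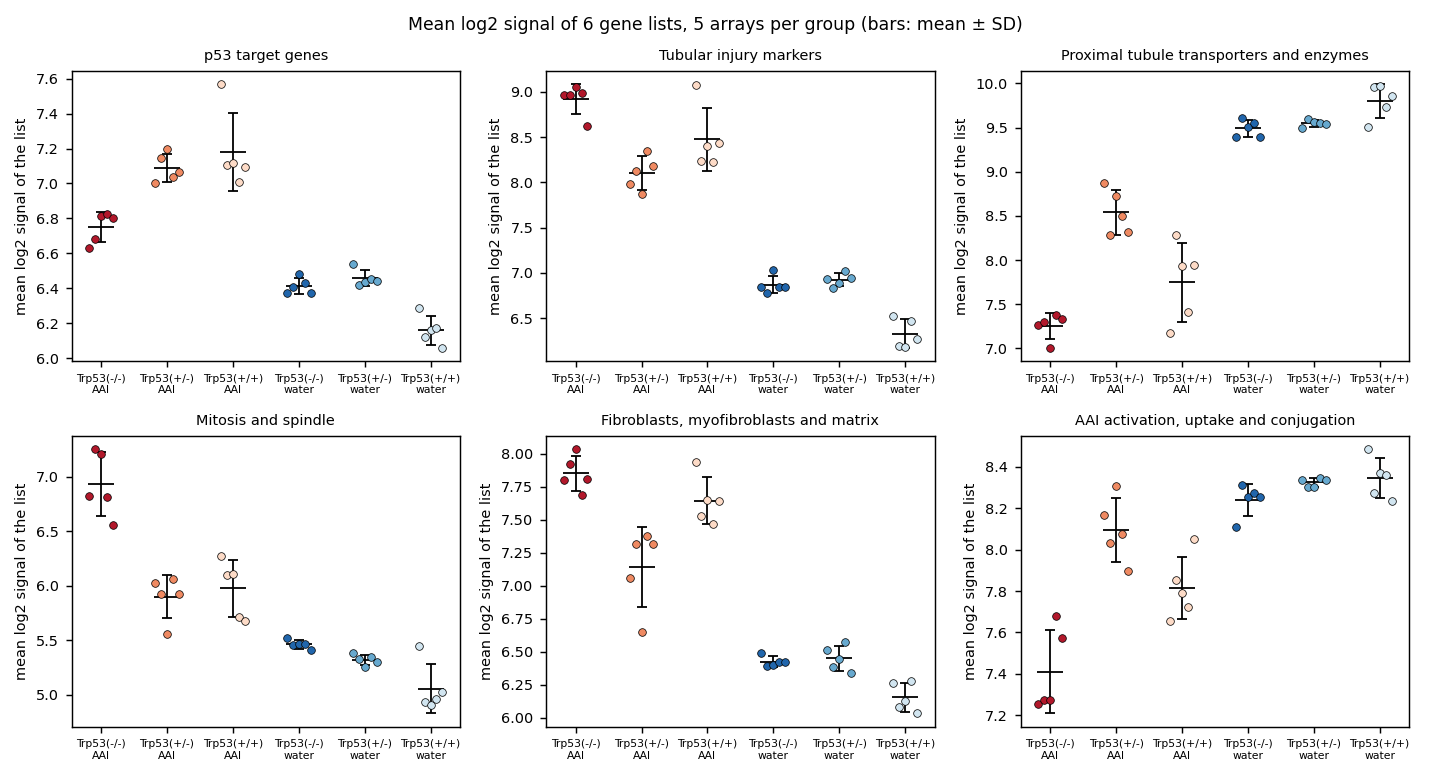
Mean log2 signal of 6 gene lists in each array, by group (points, arrays; bars, mean ± SD, n = 5). Proximal tubule genes averaged 7.26 in *Trp53(-/-)* AAI and 8.54 in *Trp53(+/-)* AAI, and mitosis genes 6.93 and 5.90.

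The mean level per list showed how the arrays varied. Proximal tubule genes averaged 7.26 ± 0.15 in *Trp53(-/-)* AAI kidneys and 8.54 ± 0.25 in *Trp53(+/-)* AAI kidneys (SD, n = 5 each). In the water kidneys the means were 9.49 in *Trp53(-/-)* and 9.55 in *Trp53(+/-)*, so both injured groups were below the controls. The *Trp53(+/+)* AAI kidneys, 4 of them in batch 1, averaged 7.75 ± 0.44, between the *Trp53(-/-)* AAI and *Trp53(+/-)* AAI means. For the fibroblast and matrix list they averaged 7.65, against 7.85 in *Trp53(-/-)* AAI and 7.14 in *Trp53(+/-)* AAI. Their mean of injury markers was 8.48, against 8.92 and 8.10 in that order. Mitosis genes averaged 5.97 in them, against 6.93 and 5.90, and p53 targets 7.18. For p53 targets the means were 6.75 ± 0.09 in *Trp53(-/-)* AAI and 7.09 ± 0.08 in *Trp53(+/-)* AAI kidneys, and those of *Trp53(-/-)* water and *Trp53(+/-)* water were 6.41 and 6.46.

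Matrix and smooth muscle genes were higher too. Of 48 measured members of the fibroblast and matrix list 25 were higher and 0 were lower (median 0.60, batch controls 0.22). *Postn*, a matrix protein of activated fibroblasts, measured 8.82, 9.30, 9.35, 8.78 and 8.60 in the *Trp53(-/-)* AAI arrays, against 6.06, 7.20, 5.89, 7.06 and 7.64 in the *Trp53(+/-)* AAI arrays. The difference was 2.20 ± 0.31 (adjusted p = 7.37e-06). *Acta2*, the actin of myofibroblasts, measured 10.89, 11.08, 11.17, 10.85 and 11.03 in the *Trp53(-/-)* AAI arrays, against 8.93, 9.72, 7.17, 9.46 and 9.56 in the *Trp53(+/-)* AAI arrays. *Trp53(+/-)* AAI array 3 was again far below the others, and the difference was 2.03 ± 0.33 (adjusted p = 6.16e-05). Of 20 endothelial genes 9 were higher and 0 were lower (median 0.37, batch controls 0.084), with *Cdh5* at 0.80, *Emcn* at 0.78 and *Ehd3* at 0.85. The batch controls of *Cdh5* were higher by 0.52 (adjusted p = 0.0126). With the control batch difference subtracted in the fit, *Cdh5* was at 0.27 (adjusted p = 0.48), *Emcn* at 0.52 and *Ehd3* at 0.82.

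**Figure D4:**
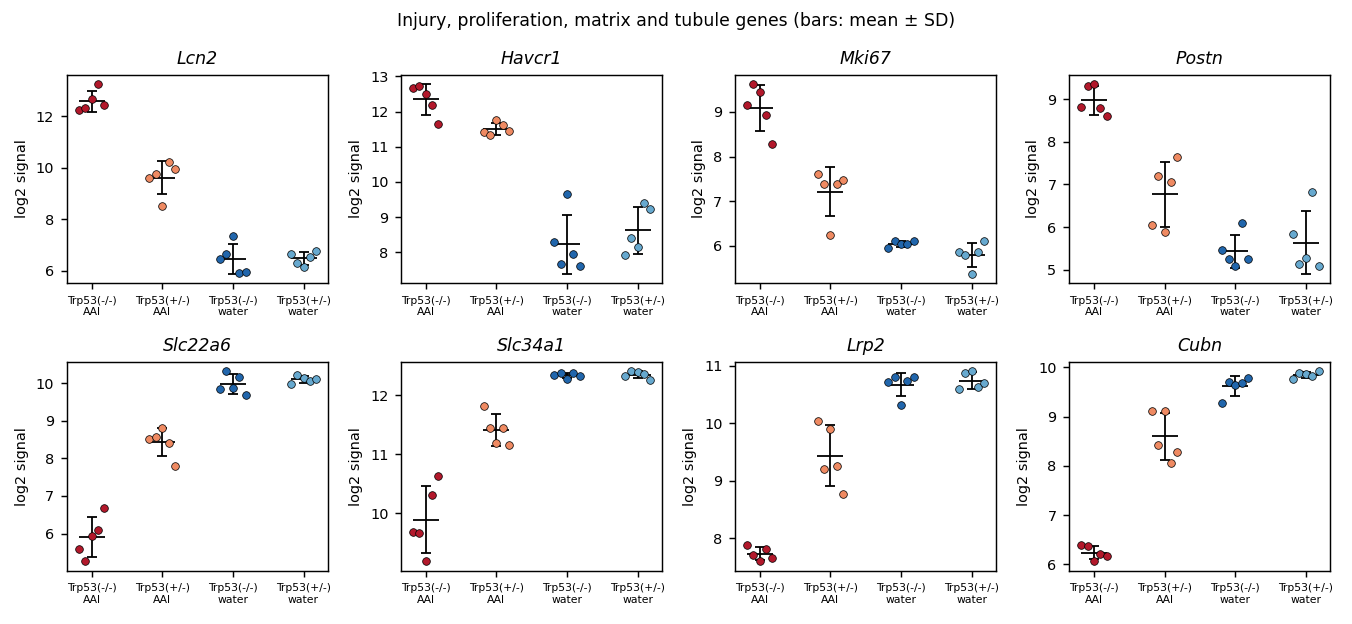
log2 signal of 8 genes of injury, proliferation, matrix and tubule in 4 groups of 5 arrays (points, arrays; bars, mean ± SD). *Lcn2*, *Mki67* and *Postn* were higher and *Slc22a6*, *Slc34a1*, *Lrp2* and *Cubn* lower in *Trp53(-/-)* AAI, without overlap, whereas *Havcr1* overlapped.

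Inflammatory genes were higher where they passed, and leukocyte markers changed to different degrees. Of 28 macrophage and monocyte genes 9 were higher. Their median was 0.28, below the 0.38 of the batch controls. Among the 9 were the scavenger receptors *Msr1* (1.58 ± 0.25, adjusted p = 3.86e-05) and *Mrc1* (1.04 ± 0.27) and lysozyme *Lyz2* (1.13 ± 0.28). The defining markers *Adgre1* and *Csf1r* did not pass, with differences of 0.20 and 0.27. Of 35 chemokines and cytokines 10 were higher (median 0.30, batch controls 0.20), with *Il6* at 1.94 ± 0.32, *Ccl2* at 1.55 ± 0.26 and *Ccl9* at 1.28 ± 0.21. *Il6* measured 6.65, 7.36, 6.92, 5.19 and 6.06 in the *Trp53(-/-)* AAI arrays, against 3.58, 4.69, 3.74, 5.94 and 4.53 in the *Trp53(+/-)* AAI arrays, and the groups overlapped through *Trp53(-/-)* AAI array 4 and *Trp53(+/-)* AAI array 4. Of 39 interferon-stimulated genes 12 were higher (median 0.41, batch controls 0.30), led by *Cxcl10* at 1.28, *Irf7* at 0.99 and *Ifit2* at 0.83. With the control batch difference subtracted in the fit, *Cxcl10* was at 0.86, *Irf7* at 0.50 and *Ifit2* at 0.18. In T and NK cell genes 0 of 22 passed in limma, in MHC class II genes 0 of 10, in red blood cell genes 0 of 5 and in urothelial genes 0 of 11. At an unadjusted p under 0.05 these were 4, 2, 1 and 0 genes, against 4673 of all 22139 tested. Of the 4 in the T and NK cell list 2 were higher and 2 lower. In the test of the methods after Benjamini-Hochberg 0 passed in each list. In the B cell, neutrophil and podocyte lists 1 of 12, 1 of 14 and 1 of 17 were higher, against 5.53% of all genes. These were *Ebf1*, *Mmp8* and *Podxl*, by 0.56, 0.71 and 0.52, and the list medians were -0.026, 0.095 and 0.13. *Mmp8* was low in signal in both groups, at 4.17 to 4.96 in *Trp53(-/-)* AAI and 3.32 to 4.65 in *Trp53(+/-)* AAI arrays.

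Stress and survival genes split. Of 32 members of the Bcl2, caspase and death receptor list 9 were higher (median 0.22, batch controls 0.19), led by the survival genes *Bcl2a1b* (1.33), *Bcl2a1a* (1.32) and *Bcl2a1d* (1.29), which are near-identical copies and can share probes. Their batch controls were higher by 1.36, 1.15 and 1.35 (adjusted p = 0.0034, 0.0188 and 0.0023), and with that difference subtracted their differences were -0.023, 0.17 and -0.060. Immediate early genes had 6 of 23 higher (median 0.23, batch controls 0.32), with *Egr1* at 1.35, *Myc* at 1.06 and *Atf3* at 0.97. For NF-kB subunits and feedback genes it was 4 of 16 (median 0.25, batch controls 0.23), with *Rel* at 0.81, *Tnfaip2* at 0.61 and *Nfkbia* at 0.57, and *Rela* (0.57), chosen after its values were seen. Of 20 Nrf2 and glutathione genes the metallothioneins *Mt1* (1.13 ± 0.16) and *Mt2* (1.06 ± 0.14) were higher and 5 were lower, among them *Gclm* (-1.08 ± 0.16), a subunit of the enzyme that makes glutathione. The others that were lower were *Slc7a11* (-0.81), the cystine importer, and *Me1*, *Nqo1* and *Taldo1*, chosen after their values were seen (-0.87, -0.78 and -0.47).

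The rest of the lists were mixed. In the unfolded protein and integrated stress response 3 of 27 were higher and 3 lower, *Ppp1r15a* and *Ddit3* at 0.76 and 0.58 being among those that were higher, with *Atf4*, *Edem1* and *Shmt2* chosen after their values were seen (0.45, -0.47 and -0.53). Complement had 4 of 21 higher, among them *C3ar1* (0.82), with *Cfp*, *C7* and *Serping1* chosen after their values were seen (0.76, 0.61 and 0.59), and 2 lower, the regulator *Cd55* (-1.44 ± 0.19) and *Cfb* (-1.03 ± 0.17). In glucose transport and glycolysis *Pfkfb3* (0.92) and *Pkm* (0.55) were higher and the enzyme *Tpi1* was lower (-0.85 ± 0.14), with *Pfkp* and *Hif1a* (0.55 and 0.50) chosen after their values were seen. In the collecting duct the water channel *Aqp2* (0.83) and the sodium channel subunit *Scnn1a* (0.68) were higher and carbonic anhydrase *Car12* was lower (-0.58), with *Scnn1g* (0.41) and *Slc26a4* (-0.55) chosen after their values were seen.

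Genes near *Trp53* were counted apart, because DNA of the embryonic stem cell line can remain around a targeted allele. Within 10 Mb on chromosome 11, 22 of 364 genes were higher and 16 were lower, which is 10.4%, the share also found among all genes tested. The neighbours with the largest differences were *Tmigd1*, a membrane protein of tubule cells, at -2.31, the cation exporter *Slc47a1* at -1.34, *Pipox* at -1.33, *Aspa* at -1.18 and the sugar transporter *Slc5a10* at -0.91. In the water kidneys 0 of the 364 passed. Even so, *Tmigd1* was lower there too, at 9.77 to 9.96 in *Trp53(-/-)* water and 10.40 to 10.61 in *Trp53(+/-)* water arrays.

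**Figure D5:**
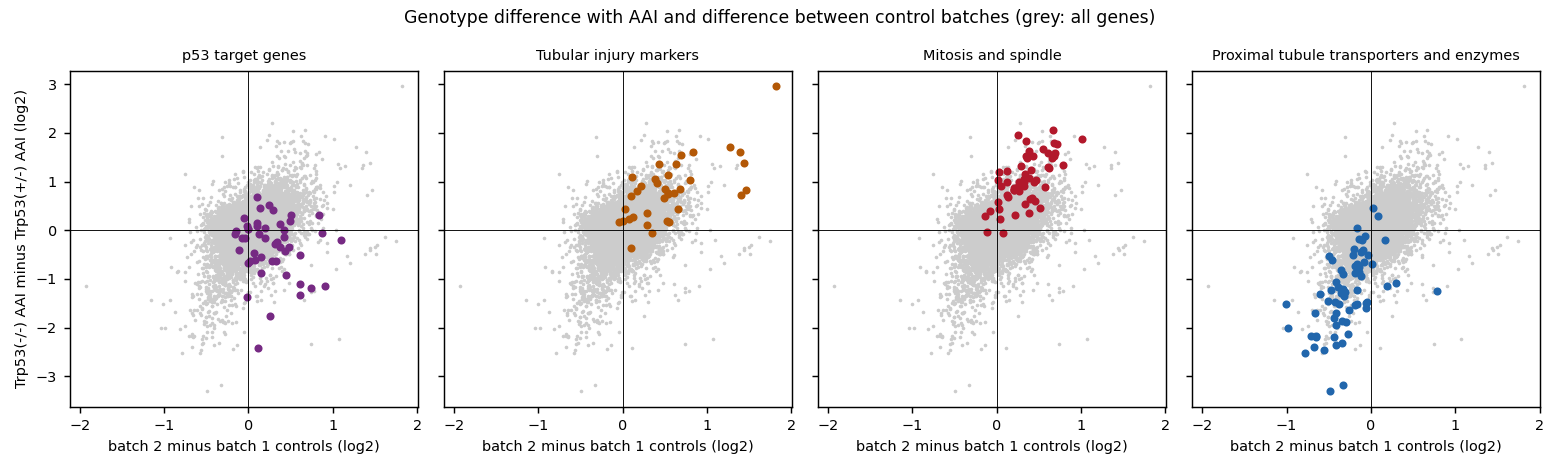
Difference of *Trp53(-/-)* AAI minus *Trp53(+/-)* AAI (vertical, log2) against batch 2 minus batch 1 controls (horizontal, log2) for members of 4 lists over all genes tested (grey). Injury and mitosis genes lie mainly at upper right, and the p53 targets that were lower lie mostly right of 0.

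The control batch difference was then subtracted within the fit to show which members still passed. That difference mixes batch with genotype. Subtracting it raised the standard error, for *Ccng1* from 0.19 to 0.25, so a gene can also stop passing through lost precision. The subtraction left 118 higher and 311 lower genes. Of the 2298 that had passed, 371 (16.1%) passed again with the same sign, while 98.6% kept their sign. Of the p53 targets 18 were lower, so that their median of -0.57 was further from 0 than before. For proximal tubule genes 26 were lower (median -0.97), for mitosis genes 10 were higher (median 0.67), and for injury markers 0 passed in limma (median 0.21), with 11 higher at an unadjusted p under 0.05. In the macrophage, interferon, immediate early, NF-kB, and Bcl2 and death receptor lists 0 members passed in limma either. Their medians were 0.12, 0.15, 0.058, -0.014 and 0.074. Of their members 5, 4, 3, 2 and 2 were higher at an unadjusted p under 0.05, and 0, 0, 1, 1 and 2 were lower. For the endothelial, G1 to S, and recombination lists 0 passed as well, with 3, 7 and 11 higher and 0, 1 and 2 lower unadjusted. The share of all genes at that unadjusted threshold was not counted in this fit. *Ccng1*, *Eda2r*, *Mdm2*, *Slc22a28*, *Slc22a6*, *Cubn*, *Postn* and *Sgo1* passed in this fit (adjusted p from 1.78e-07 to 0.0083), and *Lcn2*, *Mki67*, *Acta2* and *Bub1* did not. A batch term in the fit rests on the single *Trp53(+/+)* AAI sample of batch 2, which the labels do not identify. Over the 5 arrays that it could be, 1 to 286 genes were higher and 22 to 525 were lower, with 2 to 7 p53 targets lower, 2 to 43 proximal tubule genes lower and 0 to 17 mitosis genes higher. Of the 97 named genes, *Ccng1*, *Slc17a3* and *Tmigd1* passed in all 5 of these fits.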

How the data were processed

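RNA from 30 mouse kidneys was hybridised to Clariom S arrays, 5 per group. The authors processed the arrays with RMA in the Transcriptome Analysis Console and deposited log2 values, 1 for each of 22206 transcript clusters, so background correction and normalization were already done. RMA gives arrays a common distribution, which can hide a shift of all genes. The number of arrays limits the precision. Replicates are separate mice, as the study describes them. The labels give no cDNA batch, so the batch of each group was read from the methods and a clustering plot of the study. The methods name a removal of batch effects in a later program, and whether it touched the deposited values is not given in the sources used here.

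Clusters were named through Entrez numbers to RefSeq GRCm38.p6 symbols (19572 named, 2634 not), and 67 clusters dimmer than another of the same symbol were left out. limma 3.58.1 with statmod 1.5.0 in R 4.3.3 fitted 1 mean per group over all 30 arrays, without a batch term, with 24 residual and 7.21 prior degrees of freedom. The fit was run on simulated data with no batch difference between the 2 AAI groups, so that run cannot bear on the batch. Members of the 31 gene lists (934 genes named, 856 of them measured) and the tests were chosen with earlier results of these data known, and no set test was run. Named genes were the 10 largest increases and 10 largest decreases that passed with groups apart, up to 3 passing members per list (12 for p53 targets), up to 5 neighbours of *Trp53* and 6 fixed genes, *Cdkn1a*, *Mdm2*, *Lcn2*, *Havcr1*, *Slc34a1* and *Lrp2*. *Trp53* itself is not reported here.

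Promoter windows came from RefSeq and were searched with Python, leaving out chromosome 18. Figures were drawn with matplotlib. Alternatives were other normalizations, filters, priors, weights, thresholds, the plain test of the methods, a replicate block, batch terms and each array left out.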

Additional observations from a re-analysis of the deposited data

Results flagged for a closer look

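For 50 of the 97 named genes the genotype difference with AAI differed from that with water by the interaction term in limma (adjusted p under 0.05). Of all 22139 genes tested 571 passed. The values are the *Trp53(-/-)* minus *Trp53(+/-)* difference with AAI less the same difference with water, on the log2 scale. Proximal tubule and metabolic genes were *Slc22a28* (-3.06), *Slc22a30* (-3.02), *Dnase1* (-2.52), *Slc22a6* (-2.39), *Akr1c21* (-2.34), *Slc17a3* (-2.25), *Slc7a13* (-2.18), *Cubn* (-2.12), *Slc22a8* (-2.07), *Eci3* (-2.03), *Rnf24* (-2.00), *Ugt2b38* (-1.87), *Lrp2* (-1.63), *Tmigd1* (-1.62), *Slc34a1* (-1.51), *Acox2* (-1.36), *Slc47a1* (-1.31), *Pipox* (-1.31) and *Tpi1* (-0.84). The p53 targets were *Eda2r* (-1.59), *Ccng1* (-1.54), *Dcxr* (-1.28), *Mdm2* (-0.93) and *Zfp365* (-0.88). Complement genes were *Cd55* (-1.06) and *Cfb* (-0.93). Genes of the cell cycle and DNA repair were *Sgo1* (1.89), *Bub1* (1.83), *E2f8* (1.72), *Mki67* (1.62), *Cdk1* (1.5), *Ect2* (1.43), *Rrm1* (1.2) and *Brca1* (1.16). Matrix, smooth muscle and endothelial genes were *Postn* (2.41), *Acta2* (2.20), *Tagln* (1.97), *Emcn* (0.92) and *Cdh5* (0.79). Injury and inflammatory genes were *Lcn2* (2.98), *Krt20* (2.06), *Il6* (1.91), *Serpina3n* (1.74), *Msr1* (1.63), *Mrc1* (1.53), *Ccl2* (1.49), *Ccl9* (1.37) and *Atf3* (1.15). Metallothioneins were *Mt1* (1.13) and *Mt2* (1.02). Many of these genes were also named by their difference with AAI, which enters the interaction, so the list is not independent of that choice. The interaction does not remove the batch either, since of its 4 groups only *Trp53(+/-)* AAI was in batch 1. With a batch term it passed for 7 to 418 of all genes.

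Single arrays stood far from the other 4 of their group in 5 of 194 gene and group pairs, where the gap to the nearest array, as a part of the whole range, passed Dixon's critical value. That value is set so that chance passes it in about 1 in 20 groups, and the 5 are fewer than that. *Pmaip1* was 5.87 in *Trp53(-/-)* AAI replicate 3, against 5.23 to 5.34 in the other 4. In *Trp53(+/-)* AAI replicate 3, *Ephx1* was 9.19, against 8.46 to 8.58, *Mki67* was 6.25, against 7.38 to 7.60, and *Tnfaip2* was 5.64, against 6.63 to 7.01. *Mt1* was 10.94 in *Trp53(+/-)* AAI replicate 2, against 10.48 to 10.58.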

How the results depend on the processing

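The counts of genes that were higher (1224) and lower (1074) stayed within 1.5 times under another normalization, a filter on dim genes, another prior, array weights, all transcript clusters and the 10 arrays alone, and so did those of p53 targets (17 lower), proximal tubule genes (52 lower) and mitosis genes (47 higher). In the water comparison 0 genes passed in limma under each of these fits but the 10 arrays alone, which hold no water arrays.

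The batch settings moved the counts most. A batch term was fitted with each of the 5 *Trp53(+/+)* AAI arrays in turn placed in batch 2. With array 1 there, 1 higher and 22 lower genes passed, the interaction passed for 7, and 7 p53 targets and 2 proximal tubule genes were lower and 0 mitosis genes higher. With array 2 there, 286 higher and 525 lower genes passed, the interaction passed for 418, and 4 p53 targets and 43 proximal tubule genes were lower and 6 mitosis genes higher. With array 3 there, 83 higher and 250 lower genes passed, the interaction passed for 59, and 3 p53 targets and 28 proximal tubule genes were lower and 5 mitosis genes higher. With array 4 there, 111 higher and 29 lower genes passed, the interaction passed for 13, and 2 p53 targets and 2 proximal tubule genes were lower and 17 mitosis genes higher. With array 5 there, 76 higher and 150 lower genes passed, the interaction passed for 69, and 2 p53 targets and 21 proximal tubule genes were lower and 17 mitosis genes higher. With the control batch difference subtracted, 118 were higher and 311 lower, with 26 proximal tubule and 10 mitosis genes. The cause of these differences was not tested. Differences changed sign for *Aspa* (0.20), *Egr1* (-0.071) and *Krt20* (-0.15) with array 1, for *Ano3* (0.023), *Aqp2* (-0.45), *Car12* (0.31), *Scnn1a* (-0.25), *Slc7a11* (0.33) and *Tnfaip2* (-0.021) with array 4, for *Podxl* (-0.032) with array 5, and for *Bcl2a1b* (-0.023) and *Bcl2a1d* (-0.060) with the control difference subtracted. These genes had passed. Of the 2 named genes that had not, *Havcr1* turned with array 1 (-1.26) and with the control difference subtracted (-0.64), and *Cdkn1a* with arrays 2 (0.35), 3 (0.34), 4 (0.72) and 5 (0.34) and without *Trp53(-/-)* AAI replicate 1 (0.21) or 2 (0.060). Over the 10 AAI arrays left out in turn *Cdkn1a* ran from -0.27 to 0.21.

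Thresholds changed the counts by construction. At an adjusted p under 0.01, 641 were higher and 677 lower and the interaction passed for 205. At an adjusted p under 0.05 with at least 2-fold these were 148, 260 and 297, with 7 p53 targets and 27 mitosis genes. The methods' test at an unadjusted p under 0.05 and 2-fold gave 149 higher and 259 lower, with 7 p53 targets and 27 mitosis genes, and after Benjamini-Hochberg without the fold 551 and 630, with 30 mitosis genes.

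Replicate numbers did not pair the arrays of the 2 groups (correlations of deviations from -0.071 to -0.00087 in 5 pairs, 0 of 5 best with their own number), and with the replicate number as a block 1156 were higher and 1037 lower and the interaction passed for 549. Leaving out each AAI array gave 897 to 1358 higher, 855 to 1048 lower, 13 to 16 p53 targets, 49 to 54 proximal tubule genes and 44 to 48 mitosis genes. The interaction passed for 364 to 669 genes over the 20 arrays left out in turn, the lowest without *Trp53(+/-)* AAI replicate 3, and the water comparison for 0. Named genes that lost their call in at least 1 of these fits were *Actg2*, *Ano3*, *Aqp2*, *Ddit3*, *Mmp8*, *Ndufs8*, *Pmaip1*, *Podxl*, *Scnn1a*, *Slc7a11* and *Tnfaip2*.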
